A study of Mus musculus with 24 samples.

Results

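The activation responses of WT microglia and WT astrocytes in culture were compared gene by gene. The members were the 12 WT libraries of the 24 libraries in the study, 3 in each of 4 groups, chosen by their labels and not by any measured value. The study compared glia of WT mice and of mice that carry a mutant human *SOD1* transgene, a model of amyotrophic lateral sclerosis, and the transgenic libraries were not used here. Polyadenylated RNA of whole cultures was read by bulk, strand-specific, paired-end RNA-seq. Both files listed 24411 genes, and the 10262 genes (42.0%) whose mean was 10 or more normalized counts in each file of 6 libraries were tested. A normalized count is the number of reads on a gene divided by a size factor for the depth of its library, as the authors deposited it.

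Microglia were primary cells of WT pups aged 7 to 10 days, taken from perfused whole brains with magnetic beads against Cd11b. They were kept without serum in DMEM/F12 with TGF-β2, IL-34, cholesterol and heparan sulfate. The quiescent microglia received PBS and the activated microglia received LPS at 50 ng/ml. Astrocytes were primary cells of WT pups aged 5 days, bound from dissociated cortex to dishes coated with an antibody against HepaCAM after cells that bound CD45, BSL I or O4 had been removed. They were kept without serum in neurobasal and DMEM with HBEGF. The quiescent astrocytes received PBS, and the activated astrocytes received a mix of 3 factors, 400 ng/ml of C1q, 30 ng/ml of TNFα and 3 ng/ml of IL-1α. The sex of the pups, the length of the treatments and whether replicates came from separate animals were not found in the sources used here, which did not include the supplementary tables. Cell type, stimulus, medium, isolation and donor age differed together, so their parts in a difference between the responses cannot be told apart. Y-linked RNA also differed between quiescent and LPS-treated microglia, as given below. The parts of LPS and donor sex in the microglial response therefore cannot be told apart either.

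Microglia are the resident macrophages of the brain, and LPS, from the outer membrane of Gram-negative bacteria, is sensed by the receptor TLR4 with CD14 and Ly96. TLR4 signals through Myd88 to the transcription factor NF-κB and through Ticam1 to Irf3, which switches on interferon-β, and secreted interferon then acts on the cells through its own receptor. IL-1α and TNFα act on the receptors Il1r1 and Tnfrsf1a, which also lead to NF-κB, and the factors of the mix are ones that activated microglia release.

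Reads per library on genes were 10157188, 2550560 and 6940651 in quiescent microglia and 8121620, 5098168 and 4674300 in LPS-treated microglia. Quiescent astrocytes had 2016139, 3637657 and 9258718 reads and activated astrocytes 5047999, 6768201 and 5749391. A pair of libraries stood apart from their groups. The spread between libraries, as chi-square per degree of freedom, which is 1 for pure counting noise, was 14.0 and 12.8 between replicate 1 of the LPS-treated microglia and the others of its group, which differed by 1.63. It was 8.97 and 6.50 between replicate 3 of the quiescent astrocytes and the others, which differed by 2.03, and 1.81 to 2.45 within the remaining groups. Counts of differing genes are given with and without these libraries.

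The labels were checked against marker genes, as reads scaled to a common library total (RPM) and summed over a list. The 22 microglia markers summed to 17142 to 18150 in quiescent microglia and 6028 to 6541 after LPS, led by *Csf1r* when quiescent and by *Itgam* after LPS, with none at 3 or fewer reads. In astrocytes they summed to 436 to 648 when quiescent and 457 to 677 when activated, with *Sall1* the most abundant. The 16 astrocyte markers summed to 6697 to 8253 in quiescent and 5645 to 5718 in activated astrocytes, led by *Slc1a3*, with *Gjb6* at 3 or fewer reads in every library. In microglia they summed to 892 to 940 and 342 to 446, led by *Glul*, with *Gjb6* and *Ntsr2* at 3 or fewer reads. Each culture thus carried the markers of its label far above those of the other. Markers of other cell types also stood at other levels after activation. The 14 oligodendrocyte lineage markers summed to 1350.0 to 1389.5 in quiescent and 143 to 145 in LPS-treated microglia, most of it *Cspg4* in the quiescent cells, with *Cldn11*, *Enpp6*, *Mobp* and *Mog* at 3 or fewer reads. They summed to 2974 to 3152 in quiescent and 1133 to 1200.5 in activated astrocytes, led by *Olig1*, with *Mog* at 3 or fewer reads. The 14 neuron markers summed to 778 to 1004 in quiescent and 475 to 514 in activated astrocytes, with *Slc17a6* at 3 or fewer reads. Most of these sums was *Map2*, at a mean of 872 RPM when quiescent and 384 when activated, so they follow that gene. *Eno2*, the only other neuron marker tested below, rose there by 2.96 on the log2 scale. In microglia the 14 neuron markers were at 18.7 to 20.6 when quiescent, led by *Map2*, and 34.3 to 37.7 after LPS, led by *Eno2*, with 7 of 14 at 3 or fewer reads. The 10 border macrophage and monocyte markers summed to 43.3 to 45.5 in quiescent and 200.5 to 250.3 in LPS-treated microglia, led by *Ms4a7*, with *Cbr2*, *Cd163*, *Lyve1* and *Plac8* at 3 or fewer reads. In astrocytes they summed to 56.9 to 62.0 and 201 to 233, where *Vcan* led and 8 of the 10 were at 3 or fewer reads. The 12 endothelial markers summed to 12.4 to 16.3 in quiescent and 139 to 156 in activated astrocytes, most of it *Flt1*, with *Cdh5*, *Cldn5*, *Emcn*, *Esam*, *Ly6c1* and *Tek* at 3 or fewer reads. In microglia they summed to 68.6 to 77.2 when quiescent, led by *Flt1*, and 47.2 to 56.3 after LPS, led by *Kdr*, where *Pecam1* was at a mean of 14.9 RPM against 0.979 before, with 6 of 12 at 3 or fewer reads. The 12 pericyte and fibroblast markers were at 38.9 to 43.2 and 38.1 to 51.2 in microglia, led by *Acta2*, and at 130.0 to 167 and 100.4 to 129 in astrocytes, led by *Tagln*. The 7 neutrophil markers in the files summed to at most 5.54 in any library. In bulk RNA, fewer cells of a type and less RNA per cell cannot be told apart, and the part of these markers in the results was not tested.

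Sex-linked genes differed between the states of the microglia. The Y-linked gene *Ddx3y* was at 23.04, 22.0 and 24.5 RPM in quiescent microglia and 0.739, 0.392 and 1.07 after LPS, while *Xist*, which is transcribed from the inactive X chromosome, was at 96.7, 65.9 and 86.7 and 116, 164 and 171. The LPS libraries were thus nearly free of Y-linked RNA and the quiescent libraries were not. In astrocytes *Ddx3y* was at 27.8, 33.0 and 28.6 when quiescent and 41.8, 33.2 and 36.9 when activated, and *Xist* at 878, 658 and 263 and 524, 492 and 428. *Ddx3y* therefore appears below among the genes that fell in microglia only, and the part of donor sex in the other differences was not tested beyond leaving out the X and Y genes, which gave 647 and 970 differing genes among 9957. That step does not reach an effect of donor sex on genes of other chromosomes.

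Genes that were abundant in 1 group were also present at a low level in the other groups. Of 40 genes at 300 or more RPM in LPS-treated microglia and over 30-fold above quiescent microglia, the median level was 0.647% of the LPS level in quiescent astrocytes, 0.969% in activated astrocytes and 1.53% in quiescent microglia, and the lowest was 0.396%. *Il1a*, for example, was at 0.661%, 0.542% and 0.605% of its LPS level in quiescent microglia, quiescent astrocytes and activated astrocytes. The 11 such genes of activated astrocytes were at a median of 1.23% of that level in quiescent astrocytes, 1.01% in quiescent microglia and 6.69% in LPS-treated microglia. The limit of 30-fold holds down the level in the quiescent group of the same cell type by selection. The source of these low reads, whether a few cells of the other type, RNA made by the cells themselves or reads of another library, was not tested. They bound the folds given below and put a low level in cells that may not use the gene. Of the 10262 genes, 156 stayed under 2% of their highest group in both states of astrocytes (1.52%) and 133 in both states of microglia (1.30%).

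The response of a cell type is the mean log2(normalized count + 1) of its activated libraries minus that of its quiescent libraries, each formed within 1 file because the files were normalized separately. The difference in response is the microglial response minus the astrocytic one, tested with limma. A response or a difference was called at an adjusted p under 0.001 and more than 2-fold. Microglia changed more genes than astrocytes. In microglia 911 genes (8.88%) rose and 1141 (11.1%) fell, and in astrocytes 589 (5.74%) rose and 408 (3.98%) fell. The responses had a standard deviation over genes of 1.15 in microglia and 0.76 in astrocytes on the log2 scale, with medians of 0.00 and 0.03. Their Pearson r across genes was 0.36 and Spearman's rho 0.27, a description over 10262 genes that are not independent replicates. The difference itself was called for 1664 genes, of which 654 (6.37%) were higher in microglia, meaning a larger rise or smaller fall, and 1010 (9.84%) lower. An unadjusted p under 0.05 was reached by 5244 genes (51.1%). Without the pair of libraries that stood apart, left out together, 699 were higher and 1058 lower. The model had 8 residual degrees of freedom and a median standard error of the difference of 0.20. The p-values measure the spread between these libraries, which may be technical.

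**Figure D1:**
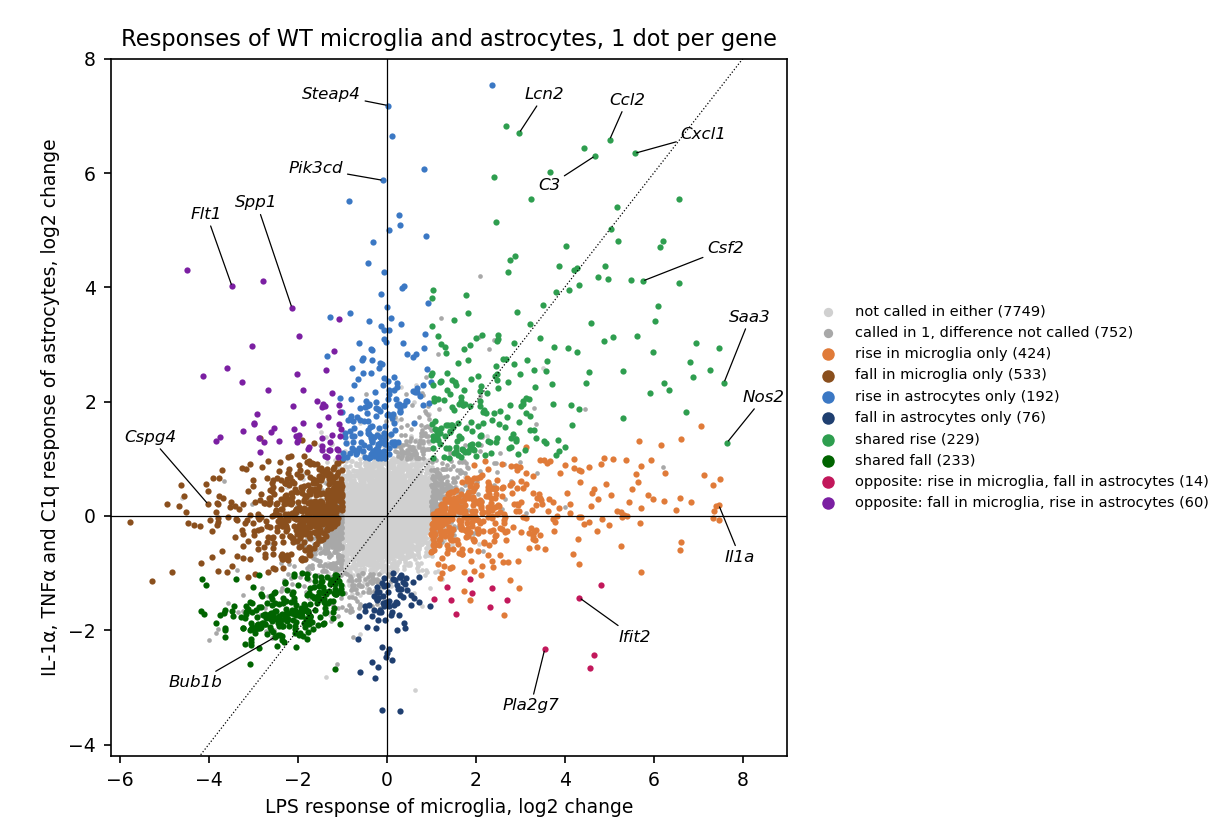
Each dot is 1 of the 10262 genes, with its LPS response in microglia across and its response to IL-1α, TNFα and C1q in astrocytes up, both as log2 changes, coloured by class, and the dotted line marks equal responses. Shared rises (229 genes) lie in the upper right and shared falls (233) in the lower left, on both sides of that line, the 14 and 60 opposite genes lie in the lower right and upper left, and genes such as *Il1a* (7.46 and 0.19) and *Steap4* (0.03 and 7.18) lie near an axis.

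Of the 2513 genes called in at least 1 cell type, 536 were called in both, 462 in the same direction and 74 (13.8%) in opposite directions. Both cell types raised 229 genes (2.23%), which is 25.1% of the microglial and 38.9% of the astrocytic rises, and lowered 233 (2.27%), which is 20.4% of the microglial and 57.1% of the astrocytic falls. In 14 genes (0.136%) microglia rose and astrocytes fell, and in 60 (0.585%) microglia fell and astrocytes rose. A response was ascribed to 1 cell type only where the other did not pass and the difference itself was called. By this rule 424 genes (4.13%) rose and 533 (5.19%) fell in microglia only, and 192 (1.87%) rose and 76 (0.741%) fell in astrocytes only. A gene so ascribed can still change in the other cell type without passing the limits. In these classes in turn, the other cell type lay within 0.5 log2 of 0 for 74.3%, 73.7%, 67.2% and 86.8% of the genes. For 752 genes called in 1 cell type, 559 in microglia and 193 in astrocytes, the difference was not called, so they belong to no class. Of the 7749 genes called in neither cell type, 255 had a called difference.

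The 6 shared rises with the largest smaller response, at a mean of at least 50 in both files, were *Cxcl1*, *Ccl7*, *Lif*, *Ereg*, *Gbp2* and *Ccl2*. *Cxcl1*, a neutrophil-attracting chemokine (chr5:90891241-90893115, plus strand, GRCm38), was at 62.4, 67.3 and 52.2 in quiescent microglia and 3145, 2795 and 2829.6 after LPS, in normalized counts, and at 34.9, 38.1 and 49.6 in quiescent astrocytes and 3738, 3374 and 3028 after the mix. All activated libraries lay far above all quiescent ones in both cell types, and the responses were 5.57 in microglia and 6.35 in astrocytes (difference -0.77 ± 0.19 SE, adjusted p = 0.0043, not called). *Ccl7*, which attracts monocytes, rose from 8.12, 4.21 and 3.03 to 679, 468 and 517 normalized counts in microglia and from 4.66, 9.18 and 5.87 to 379.9, 340.2 and 309.6 in astrocytes, with no overlap of states. *Lif*, a cytokine of the IL-6 family, rose from 11.7, 6.31 and 11.4 to 317, 424 and 391 and from 4.66, 7.87 and 18.7 to 442, 398 and 427, responses of 5.17 and 5.41. *Ereg*, a ligand of the EGF receptor, rose by 5.19 and 4.80. *Gbp2*, an interferon-inducible GTPase, went from 50.7, 54.7 and 56.0 to 4083, 4375 and 3742 in microglia and from 41.9, 45.9 and 65.6 to 1472, 1367 and 1488 in astrocytes. It rose in both, more in microglia (difference 1.40 ± 0.19, adjusted p = 3.81e-05). *Ccl2*, a monocyte chemokine, was at 91.3, 82.0 and 103 in quiescent microglia and 3463, 2809 and 2738 after LPS, and at 37.3, 39.4 and 79.0 in quiescent astrocytes and 5175, 4526 and 4654 after the mix. It rose by 5.01 and 6.58, and the difference of -1.57 ± 0.30 (adjusted p = 6.38e-04) was lost when any of 10 libraries was left out, with values of -1.92 to -1.38 over the 12 libraries and the highest adjusted p 0.00255. Only without LPS-treated microglia replicate 1 or quiescent astrocyte replicate 3 did the call for *Ccl2* stay.

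Among shared rises the difference was called higher in microglia for 51, lower for 27 and not called for 151. The median response of the class was 2.45 in microglia and 2.05 in astrocytes. *Saa3*, an acute phase protein, was at 85.3, 65.2 and 77.2 in quiescent microglia and 19655, 12579 and 12635 after LPS, and at 37.3, 78.7 and 69.4 in quiescent astrocytes and 309.5, 305 and 287 after the mix. Every activated library was above every quiescent one, but the rise was 191-fold in microglia and 5.03-fold in astrocytes (difference 5.25 ± 0.32 on the log2 scale, 95% interval 4.55 to 5.94, adjusted p = 1.27e-08). *Ptges*, which makes prostaglandin E2, rose by 6.72 and 1.82, and *Il6*, a cytokine that drives the acute phase response, by 7.26 and 2.55. *Il6* was at 4616, 4111 and 3775 normalized counts after LPS and 131, 99.8 and 104 in activated astrocytes, from 24.4, 23.1 and 31.8 and 14.0, 19.7 and 21.3. At a mean of at least 50 in both files, the largest differences the other way were those of *Lcn2*, *Timp1* and *Rgs16*. *Lcn2*, an iron-siderophore binding protein, was at 159.9, 158 and 154 in quiescent microglia and 1458, 1121 and 1188 after LPS, and at 109, 159 and 169 in quiescent astrocytes and 15899, 14411 and 14818 after the mix. It rose 7.89-fold in microglia and 104-fold in astrocytes (difference -3.73 ± 0.20, 95% interval -4.15 to -3.30, adjusted p = 3.16e-09). *Timp1*, an inhibitor of matrix metalloproteinases, rose from 55.3, 50.5 and 52.2 to 325, 264 and 273 in microglia and from 51.2, 84.0 and 84.8 to 4354, 4369.5 and 4592 in astrocytes. *Rgs16*, a regulator of G protein signalling, rose by 1.03 in microglia and 3.96 in astrocytes.

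**Figure D2:**
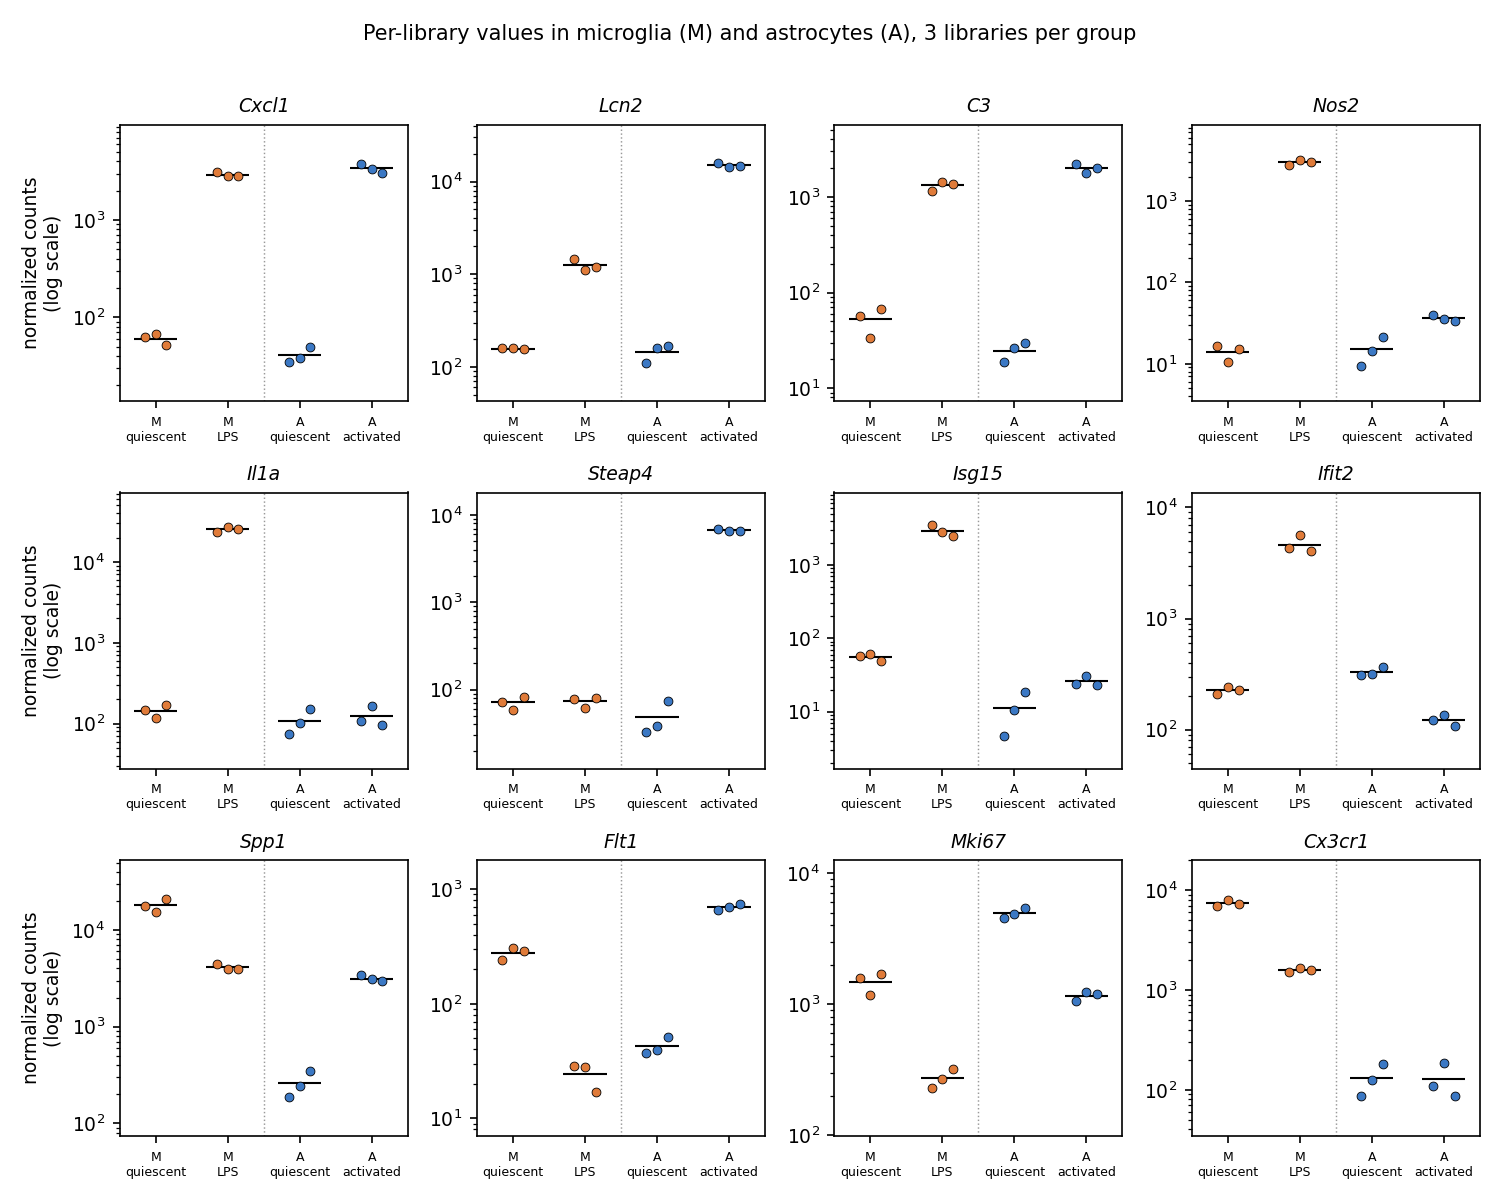
Each panel gives 1 gene, with normalized counts on a log scale up and the 4 groups across, microglia (M) on the left and astrocytes (A) on the right, where each dot is 1 library and each bar the mean of 3. *Lcn2* reaches 1121 to 1458 in LPS-treated microglia and 14411 to 15899 in activated astrocytes, *Il1a* rises in microglia alone and *Spp1* moves in opposite directions.

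Of the factors used to activate the astrocytes, *Il1a* and *Tnf* rose in microglia and *C1qa* fell. *Il1a* was at 149, 118 and 168 in quiescent microglia and 23641, 26970.1 and 25883 after LPS, a rise of 176-fold. In astrocytes it stayed at 74.5, 101 and 152 and 108, 165 and 95.7, where the states overlapped (difference 7.27 ± 0.33, adjusted p = 5.44e-10). *Il1b*, the related cytokine, gave 7.33 and -0.04, with 29132, 27266 and 27637 normalized counts after LPS. *Tnf* was at 242, 217 and 232 in quiescent microglia and 6303, 5907 and 5345 after LPS, and at 11.6, 30.2 and 30.4 in quiescent astrocytes and 28.0, 38.5 and 27.6 after the mix. It rose by 4.66 in microglia, while in astrocytes the states overlapped. *C1qa*, a chain of C1q, fell in all LPS-treated libraries, from 8273, 9154 and 8327 to 3496, 2839.6 and 2649.9, and was at 74.5, 115 and 166 in quiescent astrocytes and 112, 185 and 110.4 after the mix. Astrocytes were at 1.50% and 1.71% of the *C1qa* level of quiescent microglia, with overlapping states. Its difference of -1.75 ± 0.34 (adjusted p = 7.09e-04) was lost when any of 8 libraries was left out, 3 quiescent microglia, LPS-treated microglia 2 and 3, quiescent astrocyte 2 and activated astrocytes 1 and 2, with the highest adjusted p for *C1qa* 0.00281 and values of -2.03 to -1.46. *C1qb* gave -0.69 and 0.00 and *C1qc* -1.35 and 0.00. Of the receptors, *Il1r1*, the signalling receptor of IL-1, gave 1.15 in microglia and 2.83 in astrocytes, and its partner *Il1rap* rose in both, by 1.01 and 2.50, in microglia not without quiescent microglia 3 or LPS-treated microglia 2 or 3 (lowest 0.89). The microglial value of *Il1r1* ran from 0.68 to 1.56 when 1 library was left out. The *Il1r1* difference of -1.67 was not called, but was called without quiescent microglia 3. *Tnfrsf1a*, the main TNFα receptor, rose in astrocytes only (1.29 against 0.20), and *Tnfrsf1b* in microglia only (4.61 against 0.40). The receptor antagonist *Il1rn* rose in microglia only (5.996 against 0.29). Of the 11 tested genes of this list of 12, 6 rose and 2 fell in microglia (median 1.15) and 3 rose in astrocytes (median 0.29), and the difference was called higher in microglia for 5 and lower for 3 (median -0.69), against medians of 0.00, 0.03 and -0.03 over all genes. Of all tested genes, 8.88% rose and 11.1% fell in microglia and 5.74% rose and 3.98% fell in astrocytes. The difference was higher for 6.37% and lower for 9.84%. Neither this list nor those below were tested against these shares.

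All 15 genes of LPS sensing were tested, 8 rose in microglia (median 1.07) and 6 in astrocytes (0.49), none fell in limma, edgeR or DESeq2, and the difference was higher for 2 and lower for 1 (median -0.03, and 0.10 with quantile normalization). Over all tested genes 8.88% rose in microglia and 5.74% in astrocytes, and the difference was higher for 6.37% and lower for 9.84%. The co-receptor gene *Cd14* (2.47 and 1.36), the adaptor *Myd88* (1.72 and 1.94) and the receptor *Tlr2* (1.88 and 1.93) rose in both. The called difference of *Cd14* was lost in limma without any of 8 libraries, with values of 0.94 to 1.30 and the highest adjusted p 0.0017. *Tlr4* was at 236, 236 and 251 in quiescent microglia and 185, 252 and 220.1 after LPS, and at 21.0, 31.5 and 35.7 in quiescent astrocytes and 76.2, 83.4 and 69.8 after the mix. Its states overlapped in microglia and did not in astrocytes, where it rose (difference -1.53 ± 0.25, adjusted p = 1.90e-04). *Irak3*, a brake on this pathway, rose in microglia only (4.55 against 0.86). Of the 18 NF-κB subunits and inhibitors 13 rose in microglia (median 2.94) and 11 in astrocytes (median 2.07), 10 of them in both, and none fell in limma, edgeR or DESeq2. The difference was called higher for 5 and lower for 3 (median 0.25). *Nfkbia*, the inhibitor IκBα and itself an NF-κB target, was at 346, 319.8 and 347 in quiescent microglia and 2749.5, 2438 and 2307 after LPS, and at 55.9, 72.2 and 81.1 in quiescent astrocytes and 1748, 1604 and 1556 after the mix. It rose in every library of both, more in astrocytes (difference -1.67 ± 0.17, adjusted p = 2.09e-06), as did the co-activator *Bcl3* (3.68 and 6.01) and the subunit *Relb* (1.75 and 2.92).

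Of the 44 interferon-stimulated genes 34 were tested, and all 34 rose in microglia (median 3.12), while 15 rose and 1 fell in astrocytes (median 1.00). The difference was called higher in microglia for 23 of 34 and lower for none, with a median of 2.11, and it was above 0 for all 34. In astrocytes 31 of the 34 had a response above 0. Over all 10262 genes the astrocytic response was above 0 for 5453 and the difference for 4937. Rises were called for 8.88% of all genes in microglia and 5.74% in astrocytes, falls for 11.1% and 3.98%, and differences for 6.37% higher and 9.84% lower. In limma the difference had an unadjusted p under 0.05 for 33 of the 34, against 51.1% of all genes. For these 34 genes, edgeR called it higher for 26 and DESeq2 for 30, neither lower for any. *Isg15*, a ubiquitin-like protein, was at 57.3, 61.0 and 49.2 in quiescent microglia and 3491, 2837 and 2448 after LPS, and at 4.66, 10.5 and 18.7 in quiescent astrocytes and 24.1, 30.7 and 23.3 after the mix. The LPS-treated libraries lay far above the quiescent, and the activated astrocytes slightly above the quiescent (difference 4.37 ± 0.45, adjusted p = 2.26e-06). *Oas3*, which makes an activator of RNase L, was at 254, 267 and 248 in quiescent microglia and 3868, 5024 and 4552 after LPS, and at 11.6, 22.3 and 19.7 in quiescent astrocytes and 13.5, 26.4 and 22.4 after the mix. It rose in microglia only (4.11 against 0.20), as did *Oasl1* (6.85 against 0.25), *Rsad2*, an antiviral enzyme (6.24 against 0.26), and *Gbp3* (6.25 against 0.74). *Ifitm3*, which blocks virus entry, rose alike in both, by 2.87 and 2.67. Of the pathway itself 16 of 18 genes were tested, 7 rose and 1 fell in microglia (median 0.94) and 4 rose in astrocytes (median 0.56), with the difference higher for 5 and lower for 2 (median 0.10, and -0.01 with quantile normalization). The lower difference of *Ifngr2* (-1.02) was lost without any of 3 libraries, with values of -1.10 to -0.96. Both edgeR and DESeq2 called 1 gene of this list lower. *Irf7*, a transcription factor that amplifies the response, was at 346, 316 and 326 in quiescent microglia and 16242, 14964 and 13949 after LPS, and at 39.6, 65.6 and 73.6 in quiescent astrocytes and 65.6, 108 and 74.2 after the mix. It rose 45.5-fold in microglia, while the states of astrocytes overlapped (difference 5.03 ± 0.28, adjusted p = 5.47e-09). *Stat2* (3.07 against 0.49), *Jak2* (2.95 against 0.20) and the negative regulator *Usp18* (4.35 against 0.60) also rose in microglia only, while *Irf1* (2.42 and 2.45) and *Irf9* (1.15 and 1.51) rose in both. *Ifngr1*, a chain of the interferon-γ receptor, fell in microglia only (-1.27 against 0.74).

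Promoters of the rising genes were read for the DNA words that these factors bind. Windows of 300 bases, 250 before and 50 after the start of a gene, were taken from RefSeq on GRCm38.p6 for the 7964 tested genes that had one. The interferon-stimulated response element, searched as GAAANNGAA on both strands, was found in 677 of the 7964 (8.50%), in 50 of 320 genes that rose in microglia only (15.6%), in 24 of 169 shared rises (14.2%), in 15 of 148 that rose in astrocytes only (10.1%), in 8 of 58 that fell in astrocytes only (13.8%) and in 20 of 29 listed interferon-stimulated genes (69.0%). The NF-κB consensus was found in 501 (6.29%), in 27 of the 169 shared rises (16.0%), in 33 of the 320 (10.3%), in 15 of the 148 (10.1%), in 11 of 48 genes that fell in microglia and rose in astrocytes (22.9%), in 3 of 12 that did the opposite (25.0%) and in 7 of 14 listed NF-κB genes (50.0%). A match is a description of these letters and not a bound site. The windows of 3 genes, a leading shared rise, a rise larger in microglia and the leading rise in astrocytes only, show the NF-κB consensus in capitals, and *Isg15* and *Oas3* show the response element. They lie at chr5:90890995-90891294 (*Cxcl1*, plus strand), chr5:30012864-30013163 (*Il6*, plus), chr5:7960222-7960521 (*Steap4*, plus), chr4:156200769-156201068 (*Isg15*, minus) and chr5:120777610-120777909 (*Oas3*, minus), all in GRCm38.p6 and printed 5′ to 3′. *Cxcl1* has 1 site read on both strands with a shift of 1 base, *Steap4* has 2, and the 3 matches of *Isg15* and the 2 of *Oas3* overlap each other.
Cxcl1: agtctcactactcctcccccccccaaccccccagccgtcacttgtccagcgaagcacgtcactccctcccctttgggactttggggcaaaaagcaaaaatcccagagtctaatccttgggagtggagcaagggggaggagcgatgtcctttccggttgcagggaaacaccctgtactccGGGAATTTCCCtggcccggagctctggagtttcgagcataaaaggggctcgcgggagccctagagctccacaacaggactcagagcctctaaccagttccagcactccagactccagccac
Il6: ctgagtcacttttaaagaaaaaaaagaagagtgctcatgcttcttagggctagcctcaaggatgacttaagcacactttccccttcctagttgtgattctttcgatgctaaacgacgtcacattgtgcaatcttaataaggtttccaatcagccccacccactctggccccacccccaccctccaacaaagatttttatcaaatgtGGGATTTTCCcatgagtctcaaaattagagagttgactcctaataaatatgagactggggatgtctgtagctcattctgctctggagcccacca
Steap4: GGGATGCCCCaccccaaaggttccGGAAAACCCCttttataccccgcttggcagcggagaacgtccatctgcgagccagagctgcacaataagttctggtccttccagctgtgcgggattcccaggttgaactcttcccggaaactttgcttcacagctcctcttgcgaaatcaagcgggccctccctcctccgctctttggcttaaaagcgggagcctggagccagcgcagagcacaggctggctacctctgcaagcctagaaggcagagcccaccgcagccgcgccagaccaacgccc
Isg15: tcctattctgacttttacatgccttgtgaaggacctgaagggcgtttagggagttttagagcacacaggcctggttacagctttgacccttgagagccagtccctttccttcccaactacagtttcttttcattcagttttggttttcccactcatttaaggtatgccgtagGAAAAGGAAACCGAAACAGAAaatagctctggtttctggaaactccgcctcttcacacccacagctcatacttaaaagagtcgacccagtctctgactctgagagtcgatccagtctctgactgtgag
Oas3: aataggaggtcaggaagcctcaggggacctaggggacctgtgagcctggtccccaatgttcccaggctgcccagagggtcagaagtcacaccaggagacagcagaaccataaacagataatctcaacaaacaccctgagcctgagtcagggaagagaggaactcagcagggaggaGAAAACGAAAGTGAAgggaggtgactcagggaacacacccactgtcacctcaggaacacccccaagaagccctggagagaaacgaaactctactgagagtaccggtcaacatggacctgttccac

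Of 23 chemokines 14 were tested, 11 rose and 1 fell in microglia (median 5.37), 9 rose in astrocytes (median 1.71), 6 were shared rises, and the difference was higher in microglia for 7 and lower for 3 (median 1.73). Shares over all tested genes were 8.88% rising and 11.1% falling in microglia, 5.74% rising in astrocytes and 2.23% shared rises. For the difference they were 6.37% higher and 9.84% lower. *Ccl5* (7.49 against 0.65), *Ccl3* (5.29 against -0.02) and *Cxcl3* (7.35 against 0.08) rose in microglia only. *Cxcl5*, a neutrophil chemokine, was at 3.04, 0 and 8.33 in quiescent microglia and 19.1, 16.0 and 14.3 after LPS, and at 0, 3.94 and 5.34 in quiescent astrocytes and 705, 575 and 495 after the mix. Activated astrocytes stood far above every other library, and the rise of *Cxcl5* was called in astrocytes only (7.54 against 2.37). In microglia it was also higher after LPS, without overlap of states, but did not pass (limma adjusted p = 0.0106). The difference of *Cxcl5* was lost without any of 9 of the 12 libraries, all but quiescent microglia 2 and quiescent astrocytes 1 and 3, with values of -6.04 to -4.34 and the highest adjusted p 0.0032. *Cxcl10*, an interferon-inducible T cell chemokine, rose in both, more in microglia (6.09 and 3.67), and *Cxcl14* fell in microglia and rose in astrocytes (-2.98 and 1.63).

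Of the 21 genes of IL-6 family signalling and the acute phase 17 were tested, 9 rose and 1 fell in microglia (median 2.00), 16 rose in astrocytes (median 4.26), and the difference was higher in microglia for 3 and lower for 10 (median -2.68). The shares of all tested genes were 8.88% and 11.1% in microglia, 5.74% rising in astrocytes, and 6.37% higher and 9.84% lower. Of the 17, 8 also belong to the reactive astrocyte panel of the study, 7 of the 10 lower ones included, and are no independent evidence of direction. Without these 8, left out after their values were seen, the difference was higher for 3 and lower for 3 of 9 genes (median -0.33), with medians of 2.00 in microglia and 2.55 in astrocytes. The receptor gene *Osmr* was at 10.7, 14.7 and 6.81 in quiescent microglia and 14.7, 9.83 and 6.51 after LPS, and at 25.6, 27.6 and 50.2 in quiescent astrocytes and 713, 648 and 592 after the mix. It rose in astrocytes only, to values above all other libraries (difference -4.32 ± 0.45, adjusted p = 2.47e-06). *Il6ra*, the receptor of IL-6, fell in microglia from 320.2, 234 and 282 to 75.6, 132 and 121 and rose in astrocytes from 21.0, 17.1 and 29.9 to 144, 126 and 133, without overlap of states in either. The inhibitor *Socs3* rose in both, by 5.92 and 2.16. *Serpina3n*, a serine protease inhibitor, rose in astrocytes only (4.79 against -0.31), and so did *Ptx3*, a soluble pattern receptor (6.08 against 0.84).

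Of 19 genes of class I antigen presentation 16 were tested, 15 rose in microglia (median 2.03) and 9 in astrocytes (median 1.19), 8 of them in both, and the difference was higher for 7 and lower for 1 (median 0.93). The lower one, of *Erap1* (-1.07), was lost in limma without any of 9 libraries, with values of -1.18 to -0.90 and the highest adjusted p 0.0019. For comparison, 8.88% of all tested genes rose in microglia and 5.74% in astrocytes, and the difference was higher for 6.37% and lower for 9.84%. The transporter *Tap1* rose by 3.36 and 1.37, and *H2-K1*, a classical class I heavy chain, in microglia only (2.92 against 0.87). *H2-Q7* was at 6.60, 14.7 and 22.7 in quiescent microglia and 1503, 1307 and 1287 after LPS, and at 25.6, 3.94 and 16.5 in quiescent astrocytes and 7.71, 6.42 and 9.49 after the mix, which rose in microglia only. The heavy chain genes are close copies of each other, so the split of reads among them is uncertain, as it is for *Ifit3* and *Ifit3b*. Class II could hardly be compared, since only *H2-DMa* of 7 genes was tested. It fell in microglia only (-2.88 against -0.01).

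Of 16 complement genes 7 were tested, 2 rose and 1 fell in microglia (median 0.63) and 2 rose in astrocytes (median 0.57), with the difference higher for 1 and lower for 2 (median -0.29). With quantile normalization these medians were 0.36, 0.47 and -0.52. Over all tested genes 8.88% rose and 11.1% fell in microglia and 5.74% rose in astrocytes. The difference was higher for 6.37% of all genes and lower for 9.84%, and the complement counts were not tested against these shares. *C3*, the central component, was at 56.8, 33.7 and 66.6 in quiescent microglia and 1163, 1441 and 1359 after LPS, and at 18.6, 26.2 and 29.3 in quiescent astrocytes and 2222, 1767 and 2017 after the mix. It rose in both cell types with no overlap of states, by 25.6-fold and 78.8-fold. The difference of -1.62 ± 0.30 (adjusted p = 5.45e-04) passed, but was lost without any of 8 libraries (replicates 1 and 3 of both microglial groups, 1 and 2 of quiescent and 1 and 3 of activated astrocytes), with values for *C3* of -1.90 to -1.42 and the highest adjusted p 0.00235. It was also lost with the replicate number as a block. *Cfp*, which stabilizes the convertase of the cascade, rose in microglia only (2.48 against 0.63), and *C1ra*, a protease of C1, gave 1.21 in microglia and 3.47 in astrocytes.

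Of 15 immunometabolic enzymes in the files 11 were tested, 6 rose and 1 fell in microglia (median 2.60) and 5 rose in astrocytes (median 1.28), and the difference was higher for 6 and lower for 3 (median 2.11). In edgeR 4 of the 11 rose in astrocytes, and in DESeq2 5. With limma, 8.88% of all tested genes rose and 11.1% fell in microglia and 5.74% rose in astrocytes. The difference was higher for 6.37% of all genes tested and lower for 9.84%. *Nos2*, which makes nitric oxide, was at 16.7, 10.5 and 15.1 in quiescent microglia and 2766, 3207 and 3007 after LPS, and at 9.32, 14.4 and 21.3 in quiescent astrocytes and 39.5, 35.7 and 33.6 after the mix. The activated libraries of both exceeded their quiescent ones, 201-fold and 2.44-fold (difference 6.36 ± 0.34, adjusted p = 3.10e-09), although activated astrocytes stood at 1.52% of the level of LPS-treated microglia for *Nos2*. *Irg1*, which makes itaconate, rose in microglia only (6.60 against 0.31), as did *Sod2*, the mitochondrial superoxide dismutase (4.20 against 0.83). *Ptgs2*, the inducible cyclooxygenase, rose in both (6.89 and 2.44), while *Ptgs1*, the constitutive form, fell in microglia only (-2.81 against -0.02). *Hmox1*, which degrades heme, rose in astrocytes only (1.72 against 0.12).

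Of 16 negative feedback regulators 13 were tested, 11 rose in microglia (median 2.16), and 7 rose and 1 fell in astrocytes (median 1.42), 7 being shared rises, with the difference higher for 5 and lower for 1 (median 0.70). Shares of all tested genes were 8.88% rising in microglia, 5.74% rising and 3.98% falling in astrocytes and 2.23% shared rises. For the difference they were 6.37% higher and 9.84% lower. *Zc3h12a*, an RNase that degrades cytokine mRNA, rose by 4.74 and 4.17, and the deubiquitinase *Tnfaip3* by 4.28 and 2.86. *Cish*, a SOCS family member, rose in microglia only (5.95 against 0.98), as did the phosphatase *Dusp5* (3.88 against 0.74).

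The study's own lists were counted beside these. The study took the astrocyte panel from its earlier work on astrocyte reactivity and described the microglial genes as known activation genes. Both lists are therefore no independent evidence of direction. For comparison, 8.88% of all tested genes rose and 11.1% fell in microglia and 5.74% rose in astrocytes. The difference was higher for 6.37% of all tested genes and lower for 9.84%. All 6 microglial activation genes rose in microglia (median 6.48) and 3 rose in astrocytes (median 0.88), with the difference higher for 5 and lower for 1 (median 5.14). In edgeR 2 of the 6 rose in astrocytes, and in DESeq2 3. The reactive astrocyte panel was a copy of 35 genes, which may lack some of the 40 of the study. Of the 35, 26 were tested, 18 rose in astrocytes (median 2.22), and 13 rose and 1 fell in microglia (median 1.34), with the difference higher in microglia for 6 and lower for 11 (median -0.87). *Gfap*, an intermediate filament of astrocytes, was at 290.3, 295 and 309.6 in quiescent microglia and 319, 213 and 346 after LPS, and at 1735, 1682 and 3455 in quiescent astrocytes and 4716, 4539 and 4473 after the mix. Activated astrocytes lay above quiescent ones, of which replicate 3 was highest, and the states of microglia overlapped. *Gfap* gave 1.08 in astrocytes (adjusted p = 0.0016) and a difference of -1.14 ± 0.32 (adjusted p = 0.0095), neither called. Without quiescent astrocyte replicate 3 the difference was -1.48 (adjusted p = 6.45e-05) and was called.

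Shared falls included most of the listed genes of cell division. The class had medians of -2.16 in microglia and -1.68 in astrocytes, and the difference was called with the stronger fall in microglia for 31 genes, in astrocytes for 1 and not called for 201. *Mki67*, a marker of dividing cells, was at 1595, 1174 and 1693 in quiescent microglia and 231, 269 and 322 after LPS, and at 4547, 4897 and 5379 in quiescent astrocytes and 1050.0, 1243 and 1188 after the mix. Every activated library was below every quiescent one, by 5.40-fold and 4.26-fold (difference -0.34 ± 0.20, adjusted p = 0.19). *Bub1b*, a spindle checkpoint kinase, was at 121, 128 and 123 in quiescent microglia and 19.8, 23.4 and 19.5 after LPS, and at 440.3, 442 and 623 in quiescent astrocytes and 107, 121 and 111 after the mix. It fell by 2.52 on the log2 scale in microglia and fell by 2.12 in astrocytes, again without overlap. *E2f8*, a cell cycle transcription factor (-2.46 and -2.28), *Ect2*, needed for cytokinesis (-2.07 and -2.05), *Brca1*, a DNA repair gene (-2.32 and -2.20), and *Sncaip* (-2.87 and -2.31) fell in both. Falls made up 11.1% of all tested genes in microglia and 3.98% in astrocytes, shared falls 2.27%, and higher and lower differences 6.37% and 9.84%. Of the 24 cell cycle genes, all tested, 21 fell in microglia (median -2.97) and 22 in astrocytes (median -1.74), none rose in either, 20 were shared falls, and the difference was higher in microglia for 1 and lower for 9 (median -0.999). The exceptions in microglia were *E2f1* (-0.63), the sliding clamp *Pcna* (-0.86) and *Tyms* (0.32), which did not pass there, and in astrocytes *Tyms* (-0.73) and *Ccnb2* (-1.68). *E2f2* (-4.14 and -1.11), *Chn2* (-4.05 and -1.20) and *Ndrg2* (-3.38 and -1.11) fell more in microglia. *Adgrg1*, an adhesion receptor, was at 88.3, 88.4 and 89.3 in quiescent microglia and 37.5, 32.0 and 49.5 after LPS, and at 3042, 3097 and 3007 in quiescent astrocytes and 442, 486 and 505 after the mix. It fell more in astrocytes (difference 1.51 ± 0.18, adjusted p = 1.07e-05), and in microglia *Adgrg1* was at 2.66% and 1.02% of its level in quiescent astrocytes.

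Promoters of the falling genes were read for the cell cycle homology region, searched as TTTGAA on both strands, which binds complexes that repress cell cycle genes outside division. It was found in 1098 of 7964 windows (13.8%), in 67 of 177 shared falls (37.9%), in 14 of 58 genes that fell in astrocytes only (24.1%), in 59 of 410 that fell in microglia only (14.4%) and in 11 of 21 listed cell cycle genes (52.4%). It was also found in 10 of 29 listed interferon-stimulated genes (34.5%) and in 52 of 320 genes that rose in microglia only (16.25%). The windows of *Bub1b* (chr2:118597961-118598260, plus strand) and *Mki67* (chr7:135716330-135716629, minus strand) in GRCm38.p6 are shown because they are shared falls, with 1 and 2 matches in capitals.
Bub1b: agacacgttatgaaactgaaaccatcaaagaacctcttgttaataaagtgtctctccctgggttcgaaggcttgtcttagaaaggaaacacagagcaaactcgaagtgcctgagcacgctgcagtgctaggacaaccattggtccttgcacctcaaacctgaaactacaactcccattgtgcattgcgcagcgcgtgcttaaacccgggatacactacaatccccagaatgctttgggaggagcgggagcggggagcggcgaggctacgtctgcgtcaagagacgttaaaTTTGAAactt
Mki67: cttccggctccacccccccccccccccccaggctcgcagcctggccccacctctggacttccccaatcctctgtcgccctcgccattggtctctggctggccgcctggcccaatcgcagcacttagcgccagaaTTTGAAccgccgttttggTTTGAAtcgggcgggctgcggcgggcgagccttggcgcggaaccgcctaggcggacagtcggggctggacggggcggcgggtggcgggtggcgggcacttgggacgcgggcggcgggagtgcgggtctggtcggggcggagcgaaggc

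Opposite responses were called in 74 genes. Among the 14 genes that rose in microglia and fell in astrocytes, the class medians were 2.34 and -1.45 (difference 3.77). *Pla2g7*, which degrades platelet-activating factor (chr17:43568098-43612201, GRCm38), was at 208, 217 and 228 in quiescent microglia and 2877, 2408 and 2422 after LPS, and at 1369.7, 1279 and 1387 in quiescent astrocytes and 253, 282 and 266 after the mix. It rose 11.7-fold in microglia and was 5.03-fold lower in activated astrocytes, without overlap (difference 5.88 ± 0.13, 95% interval 5.61 to 6.16, adjusted p = 8.47e-13). *Nr4a1*, an immediate early nuclear receptor, was at 45.2, 21.0 and 25.0 in quiescent microglia and 753, 885 and 895 after LPS, and at 172, 201 and 139.8 in quiescent astrocytes and 81.0, 74.9 and 63.8 after the mix. Its states did not overlap in either cell type (difference 6.03 ± 0.32, adjusted p = 2.98e-09). *Ifit2*, an interferon-stimulated RNA-binding protein, was at 211, 244 and 226 in quiescent microglia and 4292, 5592 and 4018 after LPS, and at 309.8, 319 and 366 in quiescent astrocytes and 122, 136 and 109 after the mix. It was the only listed interferon-stimulated gene that fell in astrocytes (difference 5.76 ± 0.18, adjusted p = 4.69e-11). *Lrrc4* gave 2.71 and -1.46, and *Igfbp4*, which binds insulin-like growth factors, 2.32 and -1.60.

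The 60 genes that fell in microglia and rose in astrocytes had medians of -1.87 and 1.56 (difference -3.54). *Flt1*, a VEGF receptor (chr5:147561604-147726011, GRCm38), was at 240.0, 307 and 287 in quiescent microglia and 28.6, 28.3 and 16.9 after LPS, and at 37.3, 39.4 and 51.2 in quiescent astrocytes and 656, 703 and 745 after the mix. Quiescent microglia and activated astrocytes were the high groups (difference -7.50 ± 0.27, 95% interval -8.07 to -6.92, adjusted p = 1.02e-10), and *Flt1* was the only endothelial marker tested. *Spp1*, the secreted phosphoprotein osteopontin, was at 17719, 15547 and 20960.1 in quiescent microglia and 4492, 3926 and 3914 after LPS, and at 186, 241 and 347 in quiescent astrocytes and 3414, 3083 and 2932 after the mix. It fell 4.37-fold in microglia and rose 12.5-fold in astrocytes, which brought the groups to nearby values from far apart, on scales set by separate files (difference -5.77 ± 0.25, adjusted p = 4.12e-10). *Angptl2*, a secreted angiopoietin-like protein (-4.13 and 2.45), *Lsp1*, an actin-binding protein of leukocytes (-3.83 and 1.31), and the ephrin receptor *Epha2* (-3.75 and 1.37) followed the same course. So did *Id1*, a BMP target, which was at 121, 212 and 135 in quiescent microglia and 18.4, 14.8 and 22.1 after LPS, and at 90.8, 81.4 and 94.4 in quiescent astrocytes and 274, 277 and 267 after the mix. No gene of either opposite class lay under 2% of its highest group in both states of a cell type.

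Rises in microglia only had a median of 1.99 in microglia and 0.02 in astrocytes. At a mean of at least 50 normalized counts in both files they were led by *Il1b*, *Il1a*, *Il12b*, a subunit of IL-12 (7.40 against 0.17), *Ccl5* and *Irg1*. *Cd69*, an early activation antigen, also rose in microglia only (5.71 against 0.13). Of the 424, 65 (15.3%) stayed under 2% of their highest group in astrocytes, against 156 of all 10262 genes (1.52%). Without the genes under that limit in either cell type, 564 of 9973 genes were higher in microglia and 995 lower. *Gja1*, the gap junction gene that marks astrocytes, was at 29.4, 18.9 and 33.3 in quiescent microglia and 146, 182 and 221 after LPS, and at 1419, 1577 and 1899 in quiescent astrocytes and 943, 926 and 918 after the mix. It rose in microglia only, with *Slc1a2*, a glutamate transporter (2.28 against -0.68), while the other 10 tested astrocyte markers did not rise there. Of the 12 tested astrocyte markers 2 rose and 1 fell in microglia (median -0.09) and 2 fell in astrocytes (median -0.73), with the difference higher for 4 and lower for 1 (median 0.51). Shares of all tested genes were 8.88% rising and 11.1% falling in microglia, 3.98% falling in astrocytes, and 6.37% higher and 9.84% lower. The fall of *Hepacam* in astrocytes was lost in limma without any of 3 libraries, with values of -1.22 to -1.08 and the highest adjusted p 0.0017. A fall of *Aldh1l1* in astrocytes (-0.96) was gained without quiescent astrocyte 1 or activated astrocyte 3.

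Falls in microglia only, the largest class, had a median of -1.75 in microglia and 0.10 in astrocytes. Of 22 microglia markers 18 were tested, 10 of which are in this class, and 12 fell and none rose in microglia (median -1.54), while 0 were called in astrocytes in limma, edgeR and DESeq2 (median 0.00, with 1 at an unadjusted p under 0.05, below 0). The difference was called lower for 10 (median -1.74). For comparison, 11.1% of all tested genes fell in microglia, 5.74% rose and 3.98% fell in astrocytes, and 9.84% had a lower difference. *Cx3cr1*, the fractalkine receptor, was at 7015, 8019.6 and 7284 in quiescent microglia and 1527, 1652 and 1582 after LPS, and at 86.2, 125 and 182 in quiescent astrocytes and 109.9, 187 and 86.2 after the mix. All LPS-treated libraries lay below all quiescent ones, 4.68-fold on average, and the states of astrocytes overlapped at 1.92% and 1.85% of the *Cx3cr1* level of quiescent microglia (difference -2.18 ± 0.36, adjusted p = 1.75e-04). *Tmem119* (-4.62 against 0.55), the purine receptor *P2ry12* (-3.81 against 0.22) and the lipid receptor *Trem2* (-3.56 against -0.02) fell further. *Spi1*, the lineage transcription factor, gave 0.11 and *Itgam*, which encodes Cd11b, -0.27 in microglia, neither called.

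The 5 largest differences of this class, at a mean of at least 50 normalized counts in both files, were those of *Ddx3y*, the Y-linked gene (-4.56 against 0.34), *C77080* (-3.69 against 0.80), *Efr3b* (-3.77 against 0.66), *Cspg4* and *Abcd2*, a peroxisomal transporter of fatty acids (-3.77 against 0.34). *Cspg4*, a proteoglycan that marks oligodendrocyte precursors, was at 6198, 6644 and 6552 in quiescent microglia and 366, 419 and 417 after LPS, and at 200.3, 323 and 365 in quiescent astrocytes and 313, 358 and 323 after the mix. It was 16.1-fold lower after LPS, while quiescent and activated astrocytes overlapped (difference -4.22 ± 0.23, adjusted p = 4.18e-09). Of the 5 tested oligodendrocyte lineage markers, *Cspg4* and *Mbp* (-2.21) fell in microglia and *Olig1* (-1.74), *Olig2* (-1.28) and *Cnp* (-1.29) fell in astrocytes, with list medians of 0.10 and -1.28 and the difference higher for 3 and lower for 2 (median 1.58). Shares of all tested genes were 11.1% falling in microglia, 3.98% falling in astrocytes, and 6.37% higher and 9.84% lower.

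Rises in astrocytes only had a median of 1.79 in astrocytes and -0.16 in microglia. *Steap4*, a metalloreductase (chr5:7960457-7982213, GRCm38), was at 73.1, 58.9 and 83.3 in quiescent microglia and 78.6, 61.5 and 79.4 after LPS, and at 32.6, 38.1 and 73.6 in quiescent astrocytes and 6923, 6598 and 6566 after the mix. The activated astrocytes stood 145-fold above the quiescent, and both states of microglia overlapped at 0.997% and 0.876% of the activated level of *Steap4* (difference -7.15 ± 0.32, 95% interval -7.85 to -6.45, adjusted p = 6.06e-10). *Pik3cd*, a catalytic subunit of phosphoinositide 3-kinase, was at 371, 377 and 386 in quiescent microglia and 339, 365 and 369 after LPS, and at 11.6, 13.1 and 16.5 in quiescent astrocytes and 862, 869 and 839 after the mix. Microglia held it at a middle level in both states, and astrocytes rose 58.6-fold (difference -5.95 ± 0.16, adjusted p = 1.12e-11). *Cebpd*, a transcription factor of the acute phase, was at 144, 141 and 167 in quiescent microglia and 189, 119 and 168 after LPS, and at 34.9, 42.0 and 53.4 in quiescent astrocytes and 1452, 1427 and 1358 after the mix, without overlap in astrocytes and with overlap in microglia. *Creb3l1* (4.43 against -0.42) was also among the 5 largest at a mean of at least 50 in both files.

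Falls in astrocytes only, the smallest class of this kind, had a median of -1.51 in astrocytes and 0.01 in microglia. *Sdc3*, a heparan sulfate proteoglycan, was at 5065, 6133 and 5237 in quiescent microglia and 5579, 7154 and 6753 after LPS, and at 2989, 3254 and 3489 in quiescent astrocytes and 773, 859 and 801 after the mix. It was abundant in all groups and fell in astrocytes only (difference 2.24 ± 0.15, adjusted p = 3.57e-08). *Prkcb*, a protein kinase C (-1.58 against 0.96), and *Acsbg1*, an acyl-CoA synthetase (-1.43 against 0.61), were also among the 5 largest at a mean of at least 50 in both files. Of the 76 genes, 27 (35.5%) lay under 2% of their highest group in both states of microglia, against 133 of all 10262 (1.30%), and without such genes the class held 50.

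Of 16 TGF-β and BMP targets and receptors 13 were tested, 1 rose and 6 fell in microglia (median -1.17) and 3 rose in astrocytes (median 0.41), with the difference higher for 1 and lower for 7 (median -1.85). Over all tested genes 8.88% rose and 11.1% fell in microglia and 5.74% rose and 3.98% fell in astrocytes. The difference was higher for 6.37% of all genes and lower for 9.84%. The receptor *Tgfbr2* was at 3394, 3572 and 3362 in quiescent microglia and 615, 777 and 892 after LPS, and at 116, 161 and 198 in quiescent astrocytes and 283, 295 and 247 after the mix. It fell in microglia only (-2.19 against 0.82), as did *Tgfbr1* (-2.45 against -0.26), whereas the ligand *Tgfb2* rose in microglia only (3.64 against 0.10). The signal transducer *Smad3* rose in astrocytes only (1.70 against -0.83). TGF-β2 protein was part of the medium of the microglia and not of the astrocytes. Of 15 matrix remodelling genes 13 were tested, 5 rose and 3 fell in microglia (median 0.14, and 0.25 with quantile normalization) and 7 rose and 1 fell in astrocytes (median 1.93), with the difference higher for 3 and lower for 8 (median -2.02, the same with *Mmp3* at its bound). The collagenase *Mmp13* rose in microglia only (5.39 against -0.01), the protease *Adamts1* fell in microglia and rose in astrocytes (-1.37 and 1.93), and *Plau*, a plasminogen activator, fell in microglia only (-4.51 against 0.08).

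**Figure D3:**
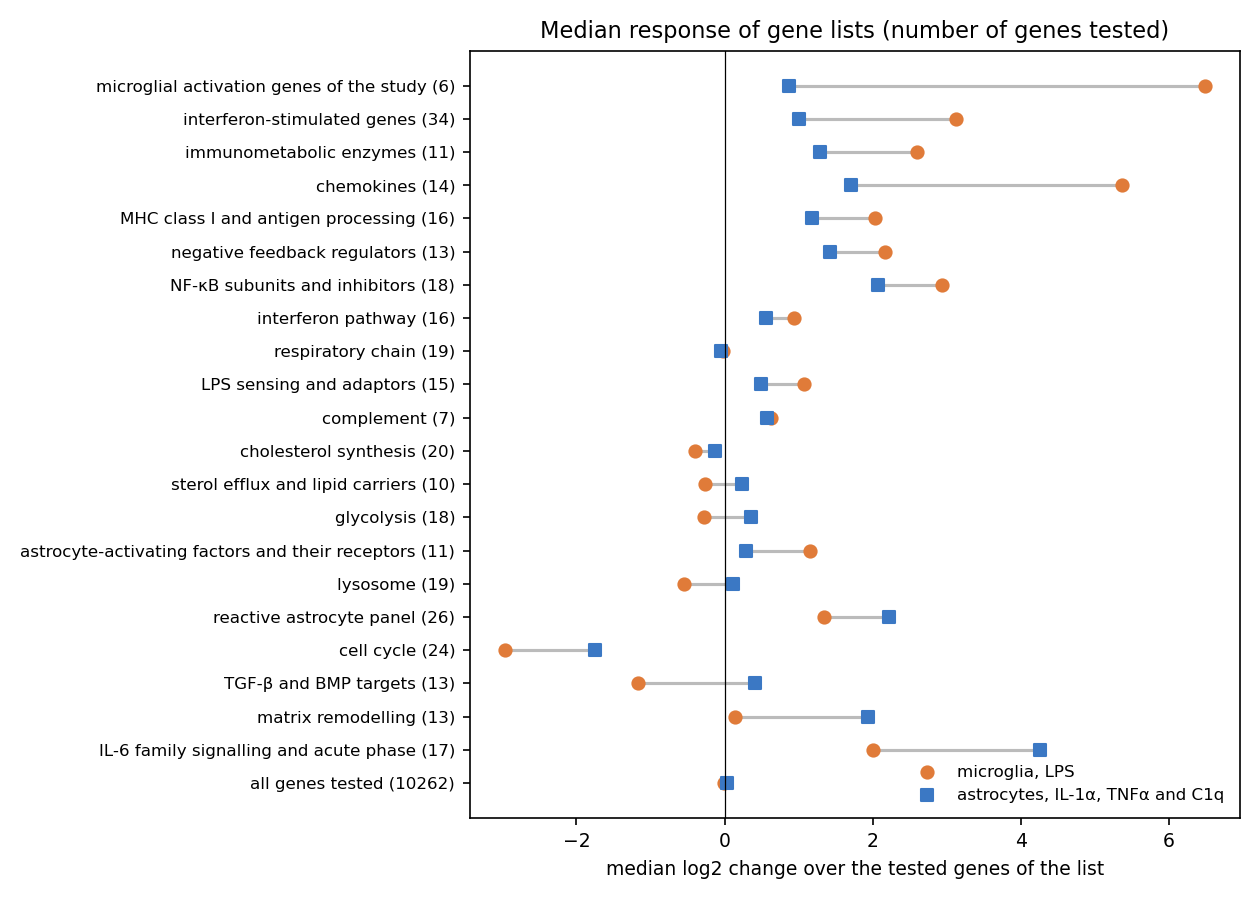
Each line is 1 gene list, with the number of tested genes in brackets, and the marks give the median log2 change over those genes in LPS-treated microglia (circles) and in activated astrocytes (squares). Interferon-stimulated genes have medians of 3.12 and 1.00, IL-6 family and acute phase genes 2.00 and 4.26 (2.00 and 2.55 without the 8 that are also in the reactive astrocyte panel of the study), the cell cycle -2.97 and -1.74, and the respiratory chain -0.02 and -0.05 (-0.19 and -0.10 with quantile normalization).

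Like the other gene lists, those of metabolism and lysosomes were not tested against all genes. Of all genes 8.88% rose and 11.1% fell in microglia and 5.74% rose and 3.98% fell in astrocytes, and the difference was higher for 6.37% and lower for 9.84%. Of the 19 respiratory chain genes 0 were called in either cell type or in the difference with limma, edgeR or DESeq2, while an unadjusted p under 0.05 in limma was reached by 7 in microglia, 5 in astrocytes and 6 in the difference. Their medians were -0.02, -0.05 and 0.09 (-0.19, -0.10 and -0.05 with quantile normalization). The 18 glycolysis genes gave 0 calls in microglia in limma (median -0.27, and -0.52 with quantile normalization, with 4 above and 10 below 0 at an unadjusted p under 0.05, and 1 fall in edgeR and in DESeq2) and 5 rises and 1 fall in astrocytes (median 0.35), with the difference higher for 1 and lower for 3 (median -0.56, and -0.87 with quantile normalization). *Pfkp*, a phosphofructokinase (1.25 against -0.51), and the lactate carrier *Slc16a1* (1.29 against 0.12) rose in astrocytes only, and *Aldoc*, an aldolase that also marks astrocytes, fell in astrocytes only (-1.94 against -0.43). The 20 genes of cholesterol synthesis gave 3 falls in microglia (median -0.39) and 0 calls in astrocytes in limma, edgeR and DESeq2 (median -0.13, with 1 above and 3 below 0 at an unadjusted p under 0.05), with the difference lower for 2 (median -0.35). The sterol regulatory element, searched as TCACNCCAC on both strands, was in 1 of 13 of their promoter windows (7.69%), in 3 of 48 genes that fell in microglia and rose in astrocytes (6.25%), in 12 of 410 that fell in microglia only (2.93%), in 5 of 177 shared falls (2.82%), in 0 of 148 that rose in astrocytes only and in 112 of all 7964 (1.41%). Of 11 genes of sterol efflux and lipid carriers 10 were tested, with 3 falls in microglia (median -0.27, and -0.57 with quantile normalization), 0 calls in astrocytes in limma (median 0.24, with 5 above and 4 below 0 at an unadjusted p under 0.05, and 1 rise in edgeR and in DESeq2) and the difference lower for 2 (median -0.40). The largest was that of *Lpl*, lipoprotein lipase (-3.25 against 0.84). Cholesterol was part of the medium of the microglia only. Of 19 lysosomal genes 7 fell in microglia (median -0.55) and 0 were called in astrocytes in limma, edgeR and DESeq2 (median 0.11, with 9 above and 1 below 0 at an unadjusted p under 0.05), with the difference lower for 7 (median -0.81). The protease *Ctsd* (-2.26 against 0.58) and *Tfeb*, a transcription factor of lysosomal genes (-1.93 against 0.70), fell in microglia only.

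Few markers of other cell types passed the filter. Over all tested genes 8.88% rose and 11.1% fell in microglia and 5.74% rose and 3.98% fell in astrocytes. The difference was higher for 6.37% and lower for 9.84%, and the marker counts were not tested against these shares. Of 12 pericyte and fibroblast markers 5 were tested, with 1 rise in microglia (median 0.32), 1 rise and 2 falls in astrocytes (median -0.61) and 0 called differences in limma (median 0.93, with 3 above 0 at an unadjusted p under 0.05, 0 in edgeR and 1 in DESeq2). *Dcn*, a matrix proteoglycan, rose in both. The 2 falls, of *Acta2* and *Tagln*, were lost without any of 7 and any of 6 libraries, at -1.38 to -1.02 and -1.25 to -1.05 over the 12. Of the 14 neuron markers only *Eno2* (3.77 and 2.96), which rose in both, and *Map2* (-0.36 and -1.15), which fell in astrocytes, were tested, and of the 10 border macrophage and monocyte markers only *Vcan* (2.78 and 1.94), which rose in both. No neutrophil marker was tested.

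Genes under the filter in 1 cell type could not enter the comparison. In the microglia file 604 genes had a mean of at least 10 while the astrocyte file did not, and 228 of them rose and 121 fell when that file was tested alone, 15.4% of its 2263 calls. The astrocyte file held 2074 such genes, of which 181 rose and 237 fell, 29.4% of its 1424 calls. Some tested genes had no library above 3 reads in 1 group, so that their fold is a lower bound set by 3 reads per library. *Csf2*, the granulocyte-macrophage colony-stimulating factor, was at least 47.5-fold higher after LPS in microglia and at least 9.66-fold higher in activated astrocytes. *Mmp3*, a stromelysin, was at least 34.4-fold higher in activated astrocytes, and *Mdfi*, an inhibitor of myogenic factors, at least 16.1-fold lower in LPS-treated microglia.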

How the data were processed

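Bulk RNA-seq values of 12 WT libraries were used, 3 in each of 4 groups assigned from the labels. Per the submitters' notes, alignment was to mm10 (STAR 2.7.3a), gene counts came from RSEM and the authors' own tests from DESeq2 in R 3.6.1. They deposited 1 table per comparison, and 1 of microglia and 1 of astrocytes were used. The 4 other files were not used here. The deposited values are a signal, normalized counts, in which each read count was divided by its library's size factor within the file. The other columns, with the mean of normalized counts, log2 fold change, standard error, test statistic, p-value and adjusted p-value of the authors' own comparisons, were not used.

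The smallest step of each column was taken as 1 read, and 100% of the values were then whole reads (tolerance 0.001), 2016139 to 10157188 per library. The floor of 3 reads per library covers counting error only. The intervals of the differences come from the standard errors of the limma fit. Like the p-values, they measure the spread between these libraries, which may be technical. Genes with a mean of at least 10 in both files were fitted with limma 3.58.1 (R 4.3.3, Python 3.11.15) on log2(normalized count + 1) with an intensity trend, 1 mean per group, with Benjamini-Hochberg adjustment over 10262 genes in each contrast. The added 1 makes folds of genes with few reads too small. With 3 against 3 libraries, an exact test of 1 gene could not fall under 0.1, so genes carry the model's adjusted p-values. In simulated reads of 10262 genes, 200 of them given a difference in response, limma called 89% of the 4-fold and 99% of the 8-fold differences and 0 of the other genes, of which 4.63% had an unadjusted p under 0.05. The simulated reads were drawn for each gene on its own, with no library standing apart across genes and no shift of donor sex. These rates therefore need not hold for the real libraries.

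Named genes were, at a mean of at least 50 in both files, the 6 shared rises and 6 shared falls with the largest smaller response, the 5 genes with the largest difference in each other class, the 3 shared genes with the largest called difference each way, the list members with the largest differences, and genes always named, among them *C3*, *Lcn2*, *Nos2* and *Gfap*. Genes ranked within a class also had to have states that do not overlap in each cell type where they were called. List members given by role go beyond that rule. Some genes that met the rule are not reported here. The members and lists were chosen with earlier results of these data known. The lists came from general knowledge, apart from the reactive astrocyte panel and the microglial activation genes, which are the study's. Gene positions are those of GENCODE M21 on GRCm38 and promoters those of RefSeq on GRCm38.p6.

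The alternatives were a pseudocount of 0.5 or 5, no filter, 10 or more in every library, quantile or TMM scaling, limma without the trend or within each file, edgeR 4.0.16 and DESeq2 1.42.0 on the recovered reads, other limits, a block for the replicate number and fits without each library. On recovered reads edgeR called 742 genes higher and 1074 lower in microglia, and DESeq2 808 and 1119. Chosen after seeing the data were leaving out the X and Y genes, leaving out panel genes from the IL-6 family list, leaving out genes under 2% of their highest group in 1 cell type, and leaving out LPS-treated microglia replicate 1 and quiescent astrocyte replicate 3 together.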

Additional observations from a re-analysis of the deposited data

Results flagged for a closer look

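The responses of the cell types differed by the test of the difference itself in 654 genes that were higher and 1010 that were lower in microglia, and they ran in opposite directions in 14 and 60 genes. Among the opposite genes the microglial minus the astrocytic response was 5.88 for *Pla2g7*, 6.03 for *Nr4a1*, 5.76 for *Ifit2*, 4.18 for *Lrrc4* and 3.92 for *Igfbp4* on the log2 scale. It was -7.50 for *Flt1*, -6.58 for *Angptl2*, -5.77 for *Spp1*, -5.13 for *Lsp1* and -5.13 for *Epha2*.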

How the results depend on the processing

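The 14 counts were recomputed under 30 settings, and 389 of the 420 values lay within 1.5 times the reported count, all 12 settings that left out 1 library included. Leaving out 1 library gave 587 to 698 genes higher and 875 to 1035 lower in microglia. At least 10 in every library gave 152 shared falls, from fewer genes tested. An adjusted p under 0.05 with a 2-fold limit gave 22 genes that rose in microglia and fell in astrocytes. Without a fold limit it gave 2897 rises and 2985 falls in microglia, 1922 and 1545 in astrocytes, 2068 higher and 2466 lower differences, 897 shared rises, 833 shared falls, 218 and 443 opposite genes, 1150 rises and 1166 falls in microglia only and 377 and 301 in astrocytes only. An adjusted p under 0.001 with a 4-fold limit gave, in the same order, 385, 400, 223, 42, 274, 415, 87, 19, 3, 10, 199, 198, 75 and 11. Without genes under 2% of their highest group, 50 fell in astrocytes only. With the replicate block the difference was called for 601 genes higher and 923 lower, 1486 of which were among the 1664, and *C3* was no longer called. Libraries with the same number correlated at -0.0494, -0.0138 and 0.0642 in microglia and 0.0901, 0.0615 and -0.00964 in astrocytes, so the numbers were not taken as pairs. The share of higher among called differences was 39.3%, and 36.2% to 45.6% over the settings. Of 1834 values for the 62 genes that the naming rule gave apart from list members, 1794 kept their call, 36 lost it, 4 gained it and 0 reversed. The losses were those of *C1qa*, *C3* and *Ccl2* under several settings, of *Adgrg1* and *Gbp2* at 4-fold and of *Mmp3* in edgeR, and the gains were those of *Gfap*. Of 323 other tested list members 139 had a called difference, lost for 20 without at least 1 of the 12 libraries, and 0 calls reversed under any setting. The cause of these changes was not tested. The depth of 2016139 reads in the shallowest library limits what can be seen of genes near 10 normalized counts.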
